A study of Rattus norvegicus with 47 samples.

Results

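The comparison described here set kidneys of rats that carried depleted uranium (DU) pellets against kidneys of rats that carried aluminium (Al) pellets, 12 months after implantation. Members were all libraries labelled DU and all labelled Al at that time, 8 of each, 16 of the 47 kidney libraries in the series. All genes in the raw count table were used, and 15868 of them had enough reads to be tested. The series gave rats at random pellets of 1 of 6 metals, each a cylinder of 1 mm by 2 mm, with tantalum (Ta) as its inert reference. Each library is RNA of kidney tissue from its own animal, and which piece of the kidney was taken is not given in the sources used here, and no group without a pellet was used here. The 8 Ta kidneys are given below only as a background level. Strain, sex, age and the implantation site are not given in the sources used here, and animal numbers run in blocks by metal, so handling order and metal cannot be told apart.

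Depleted uranium is uranium with little of its fissile isotope, and its toxicity in the kidney is mainly that of a heavy metal. Uranyl ions pass the glomerulus bound to bicarbonate and other small ligands and injure mainly the proximal tubule, above all its last segment, S3. The first segments, S1 and S2, take back most of the filtered glucose, amino acids, phosphate and bicarbonate, while S3 carries its own set of sugar, amino acid and organic anion transporters. Aluminium is also cleared by the kidney, but is better known for effects on bone and brain. Metallothioneins are small cysteine-rich proteins that bind zinc, copper and cadmium and are induced by metals, glucocorticoids and inflammation.

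Total gene counts were 23069582 to 32936105 in DU and 24483252 to 31360637 in Al. Levels are given in CPM, counts scaled to a common library size. The lead of ribosomal protein genes over genes of giant proteins in mean log2 CPM, a check on gene size, was 2.60 ± 0.30 in DU and 2.77 ± 0.43 in Al (SD, n = 8 each), against 1.83 ± 0.28 in Ta. One DU library, replicate 6, stood apart. Its log2 CPM correlated at 0.908 with the mean of the rest of its group, against at least 0.971 for every other DU library, and mitochondrially encoded genes took 11.8% of its counts, against 14.3% to 24.0%. Each main count is therefore given with and without it. Kidney markers were present in every group: the median Lrp2 level, for the proximal tubule receptor megalin, was 1630 CPM in DU and 1449 CPM in Al.

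Of the 15868 genes tested, 2010 differed between DU and Al (12.7%) at an adjusted p below 0.05 by edgeR's quasi-likelihood test with Benjamini-Hochberg adjustment. In DU 900 were higher (5.67%) and 1110 lower (6.995%). The balance of directions depended on the model: a fit of the 16 DU and Al libraries alone gave 1137 higher and 743 lower, and DESeq2 on all libraries 1360 and 1132. The median log2 difference over all genes, DU minus Al, was 0.02. Without DU replicate 6, 1332 of 15833 genes differed (8.41%), 537 of them higher (3.39%) and 795 lower (5.02%). The 2 results shared 1171 genes, which is 58.3% of the first and 87.9% of the second, and all 1171 had the same direction. Loss was greater among higher genes: 50.6% of the higher calls and 64.5% of the lower calls remained. Few genes separated the groups fully, with every DU library above every Al library for 53 genes (0.334%) and below for 0.637% of genes.

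Both groups were uneven. DU replicate 6 was the highest DU library for 510 of the 900 higher genes and the lowest for 646 of the 1110 lower genes, and DU replicate 5 was so for 205 and 265. On the other side, Al replicate 5 had the highest Al level for 547 of the lower genes and the lowest Al level for 318 of the higher ones. Leaving out 1 library at a time gave 927 to 2509 genes, with the lowest count without Al replicate 5. In all 16 such fits 756 genes stayed past the threshold with the same direction, 248 higher and 508 lower.

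**Figure D1:**
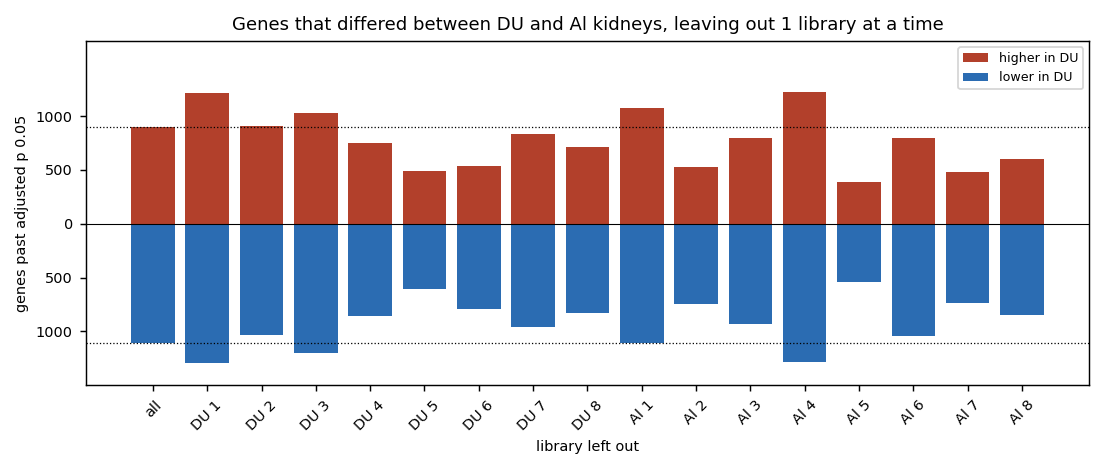
Genes past an adjusted p of 0.05 (vertical axis, number of genes), higher in DU above 0 and lower in DU below 0, with all libraries (first bar) and with the library named on the horizontal axis left out. Dotted lines mark the counts with all libraries, 900 and 1110; the shortest bars, 387 and 540, are those without Al replicate 5.

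The 10 genes with the smallest p-values were all lower in DU, and all 10 stayed past the threshold whichever library was left out. Thada, whose product is implicated in energy balance, ranged from 28.0 to 55.9 CPM in DU (median 48.0) and from 70.1 to 124.6 CPM in Al (median 88.4). Every DU library lay below every Al library, and the Ta kidneys held 93.2 ± 20.3 CPM (SD, n = 8), a level like that of Al. The log2 difference was -1.01 ± 0.13 (SE, adjusted p = 2.08e-05), and -0.93 without DU replicate 6 (adjusted p = 7.85e-05).

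Cyp2c11, a steroid-hydroxylating cytochrome P450 best known from male rat liver, had the largest fall among genes above 1 CPM in either group. Its DU levels were 0.443 to 10 CPM (median 3.93), and its Al levels 2.81 to 128.6 CPM (median 41.0). Only Al replicate 6 lay within the DU range, and Ta kidneys held 40.5 ± 35.0 CPM. The log2 difference was -3.68 ± 0.62 (adjusted p = 5.80e-04). Its relative Cyp2c24 was 7.22 to 29.4 CPM in DU (median 14.9) against 18 to 111.5 CPM in Al (median 63.4), a difference of -1.99 ± 0.35 (adjusted p = 8.37e-04). These P450 genes have close relatives, so reads shared between copies make their values less certain.

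Eps8l3, a relative of the actin regulator Eps8, was at 0.382 to 1.94 CPM in DU (median 1.14) and 2.75 to 8.87 CPM in Al (median 6.78), with no overlap (-2.38 ± 0.40, adjusted p = 5.80e-04). Cldn3, a tight junction claudin, was at 20.8 to 41.8 CPM in DU (median 30.3) and 43.9 to 81.5 CPM in Al (median 56.0), again with no overlap. Here the Ta level, 34.2 ± 6.50 CPM, was like that of DU, not of Al. Its log2 difference was -0.90 ± 0.15 (adjusted p = 5.80e-04).

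Sox9, a transcription factor of tubule development and repair, was also separated fully: 28.5 to 52.2 CPM in DU (median 38.3) against 55.7 to 86.6 CPM in Al (median 68.0). It was 61.1 ± 12.4 CPM in Ta, and the log2 difference was -0.88 ± 0.14. Misp, which positions the mitotic spindle and bundles actin (-1.14 ± 0.18), and Gfra4, a receptor for a ligand of the GDNF family (-1.41 ± 0.24), did not overlap between groups either. Sema6a, a transmembrane semaphorin (-1.30 ± 0.22), and Eef2kmt, a methyltransferase of elongation factor 2 (-0.77 ± 0.13), had 7 of 8 DU libraries below all Al libraries. Adjusted p was 5.77e-04 for Misp and 5.80e-04 for Sox9, Gfra4, Sema6a and Eef2kmt.

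**Figure D2:**
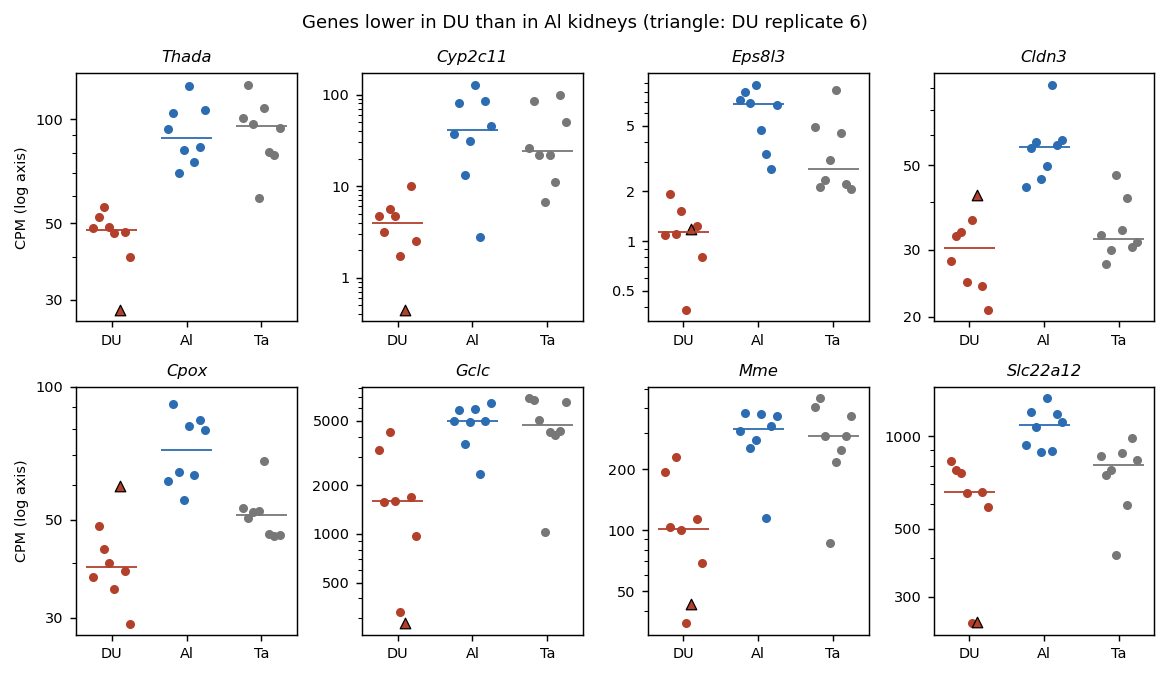
CPM on a log axis of 8 genes lower in DU, 1 point per library and a line at the group median, for DU, Al and Ta (n = 8 each); the triangle is DU replicate 6. In each panel the DU median lies below those of Al and Ta. Only in Thada and Eps8l3 does every DU library lie below all Al and Ta libraries. In Cldn3 the Ta libraries lie near DU.

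Other large falls were mostly in genes of low level. Epha3, an ephrin receptor kinase, differed by -2.31 ± 0.44 (adjusted p = 0.00149), from an Al median of 3.38 CPM to a DU median of 0.769 CPM. Frmd1 (-2.56), Armh1 (-2.55), Magec2 (-2.29), Defb42 (-2.24), Anxa13 (-2.08), Syce1 (-2.04) and Slitrk1 (-2.03) had adjusted p-values from 0.00153 to 0.00598, and of these Anxa13 had the highest Al median, 10.3 CPM. Frmd1, Armh1, Epha3 and Magec2 included DU libraries at 0. Near 0 counting error is a large part of the spread.

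The 2 ends of the proximal tubule went opposite ways. Among 15 markers of S1 and S2, 6 were higher in DU and none lower (40%, background 5.67%), with a median log2 difference of 1.05 against 0.02 over all genes. Without DU replicate 6 they were 8 and 0 (backgrounds 3.39% and 5.02%). Among 11 markers of S3, 5 were lower and none higher (45.5%, background 6.995%, median -0.79). Without DU replicate 6, 4 were lower (background 5.02%). In tissue RNA, fewer cells of a type and less RNA per cell cannot be told apart.

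Of the S1 and S2 genes, Slc5a12, a lactate transporter, was 6.16 to 103.2 CPM in DU (median 68.3) and 1.88 to 22.3 CPM in Al (median 9.26). There were 5 DU libraries above all Al libraries, while replicates 1, 3 and 6, at 6.16, 21.4 and 18.9 CPM, lay within the Al range. Its log2 difference was 2.50 ± 0.72 (adjusted p = 0.0190). Slc4a4, the basolateral bicarbonate exit of the tubule, was 23.1 to 243 CPM in DU (median 134.1) and 6.50 to 60 CPM in Al (median 22.6), and 6 of 8 DU libraries lay above all Al ones (2.31 ± 0.61, adjusted p = 0.0122). Slc5a2, the glucose transporter SGLT2, had medians of 403 CPM in DU and 126.4 CPM in Al (1.54 ± 0.47, adjusted p = 0.0268), and lost its call in 6 of 16 leave-one-out fits. Slc13a3, which takes up dicarboxylates, differed by 1.05 ± 0.32 (adjusted p = 0.0260) and lost it in 4. Its level was 486 ± 193 CPM in DU, 235 ± 92.9 CPM in Al and 485 ± 72.4 CPM in Ta (SD). All 8 Al libraries lay below every Ta library for this gene.

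The mean log2 CPM of the S1 and S2 list was 5.52 in DU replicate 6 and 7.48 to 9.15 in the other DU libraries, against 6.81 to 8.12 in Al and 8.21 to 8.70 in Ta. All 8 Al libraries lay below every Ta library, and 4 DU libraries lay above every Ta library. For the S3 list, DU spanned 4.89 to 8.01, with replicates 5 and 6 lowest, Al 7.28 to 8.51 and Ta 6.73 to 8.25.

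Of the S3 genes, Slc5a10, a sugar transporter for mannose and fructose, was 43.5 to 123.8 CPM in DU (median 85.7) and 117.5 to 324 CPM in Al (median 195). All but 1 DU library lay below all Al libraries (-1.20 ± 0.19, adjusted p = 5.80e-04). Slc22a7, the organic anion transporter OAT2, was 1.07 to 37.1 CPM in DU (median 13.4) and 24.8 to 61.0 CPM in Al (median 33.8), a difference of -1.54 ± 0.41 (adjusted p = 0.0128). Slc7a13, an aspartate and cystine transporter of S3, had the widest DU range, 13.0 CPM in replicate 6 and 96.2 CPM in replicate 5 to 2157 CPM, against 1079 to 4742 CPM in Al. Its difference of -1.50 ± 0.46 (adjusted p = 0.0271) lost its call in 4 of 16 leave-one-out fits, with the highest adjusted p 0.0698 without Al replicate 5.

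Transporters of organic anions, cations and urate were lower more often than higher, with 11 lower (36.7%, background 6.995%) and 3 higher (10%, background 5.67%) of 30 tested. The median was -0.42, and without DU replicate 6 there were 10 lower and 5 higher (backgrounds 5.02% and 3.39%). Slc22a12, the urate transporter URAT1, was 245 to 830 CPM in DU (median 657) and 891 to 1336 CPM in Al (median 1092). The groups did not overlap, DU replicates 5 and 6 were lowest at 245 and 247 CPM, and Ta held 763 ± 182 CPM. The log2 difference was -0.86 ± 0.19 (adjusted p = 0.00355). Slc17a1, a urate and phosphate transporter, also showed no overlap, with medians of 87.9 and 120.5 CPM (-0.55 ± 0.12, adjusted p = 0.00328). Abcg2, which exports urate and drugs, differed by -0.79 ± 0.17 (adjusted p = 0.00333). In the other direction, Abcc4, a pump for organic anions and cyclic nucleotides, was 40.2 to 79.6 CPM in DU and 31.2 to 46.1 CPM in Al (0.74 ± 0.17, adjusted p = 0.00517). Ta held 56.6 ± 8.49 CPM of Abcc4, and all 8 Al libraries lay below every Ta library.

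Brush border peptidases and genes of the renin-angiotensin system had the greatest share of lower members of any list, 9 of 19 (47.4%, background 6.995%). Another 2 were higher (10.5%, background 5.67%), and the median was -0.50. Without DU replicate 6 there were 8 lower and 3 higher (backgrounds 5.02% and 3.39%). Lower genes included Agt, Mme, Anpep, Enpep, Dpp4, Mep1a, Ggt1 and Cndp1. Mme, the peptidase neprilysin, was 34.6 to 230 CPM in DU (median 101.8) and 114.7 to 380 CPM in Al (median 317). Al replicate 6, at 114.7 CPM, was the only Al library within the DU range, and the difference was -1.44 ± 0.29 (adjusted p = 0.00178). Agt, for angiotensinogen, had medians of 77.7 and 182 CPM (-1.07 ± 0.23, adjusted p = 0.00333), and Cndp1, which cleaves carnosine, 45.1 and 166 CPM (-1.55 ± 0.39, adjusted p = 0.00781).

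Reabsorption genes for sugars, amino acids, peptides and proteins split evenly, 9 higher (28.1%, background 5.67%) and 8 lower (25%, background 6.995%) of 32. Slc3a2, the heavy chain of basolateral amino acid exchangers, was 221 to 481 CPM in DU (median 344) and 172 to 251 CPM in Al (median 201), higher by 0.76 ± 0.16 (adjusted p = 0.00284). The apical proline transporter Slc6a20 (-0.90 ± 0.18, adjusted p = 0.00193) and the peptide transporter Slc15a2 (-1.26 ± 0.32, adjusted p = 0.00847) were lower. Genes of bicarbonate and ammonia handling were 3 higher and 3 lower of 16 (18.8% each, backgrounds 5.67% and 6.995%). Car2, carbonic anhydrase (-0.50 ± 0.11), Glud1, which releases ammonia from glutamate (-0.53 ± 0.13), and Slc38a3, the glutamine uptake carrier (-1.14 ± 0.30), were lower. Slc16a1, a monocarboxylate transporter, was higher by 2.64 ± 0.61 (adjusted p = 0.00463), with 6 of 8 DU libraries above all Al ones.

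Both subunits of the first enzyme of glutathione synthesis were lower in DU. Gclc, the catalytic subunit, was 279 to 4296 CPM in DU (median 1588) and 2354 to 6425 CPM in Al (median 4969). DU replicates 5 and 6 were lowest, at 330 and 279 CPM, replicates 1 and 3 lay within the Al range, and Ta held 4883 ± 1953 CPM. The log2 difference was -1.47 ± 0.35 (adjusted p = 0.00598). Gclm, the modifier subunit, had medians of 500 CPM in DU and 1157 CPM in Al (-1.06 ± 0.23, adjusted p = 0.00336). Both are also targets of the oxidative stress factor NRF2, whose list of 25, with glutathione synthesis, had a median of 0.11. It had 5 lower members (20%, background 6.995%) and 4 higher ones (16%, background 5.67%). The lower ones included Me1, malic enzyme (-0.69 ± 0.16, adjusted p = 0.00509). Nqo1, a standard NRF2 target, was 3.64 to 25.7 CPM in DU and 6.45 to 10.4 CPM in Al and did not pass the test (0.17 ± 0.22, adjusted p = 0.646). Among 18 glutathione S-transferase genes 3 were lower (16.7%, background 6.995%) and 1 higher (5.56%, background 5.67%). Gstt2 was the one with no overlap between groups, as were 0.637% of all genes in that direction (-0.71 ± 0.14, adjusted p = 0.00163).

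Cpox, coproporphyrinogen oxidase of haem synthesis, was lower in DU. It was 29.1 to 59.5 CPM in DU (median 39.1) and 55.3 to 91.5 CPM in Al (median 72.0). DU replicate 6, at 59.5 CPM, was the only DU library within the Al range, and without it the difference went from -0.81 ± 0.14 (adjusted p = 7.04e-04) to -0.90 ± 0.14 (adjusted p = 3.84e-04). Of the 23 iron and haem genes 4 were lower (17.4%, background 6.995%) and 3 higher (13%, background 5.67%). These were 4 and 0 without DU replicate 6 (backgrounds 5.02% and 3.39%). Drug metabolism genes were 9 lower (26.5%, background 6.995%) and 2 higher (5.88%, background 5.67%) of 34, with a median of -0.37. The sulfotransferase Sult1b1 was among the lower ones (-0.96 ± 0.20, adjusted p = 0.00252). Fatty acid oxidation and ketone body genes were 6 lower (18.2%, background 6.995%) and 1 higher (3.03%, background 5.67%) of 33. Bdh1, hydroxybutyrate dehydrogenase, was among the lower ones (-0.50 ± 0.13, adjusted p = 0.0113).

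**Figure D3:**
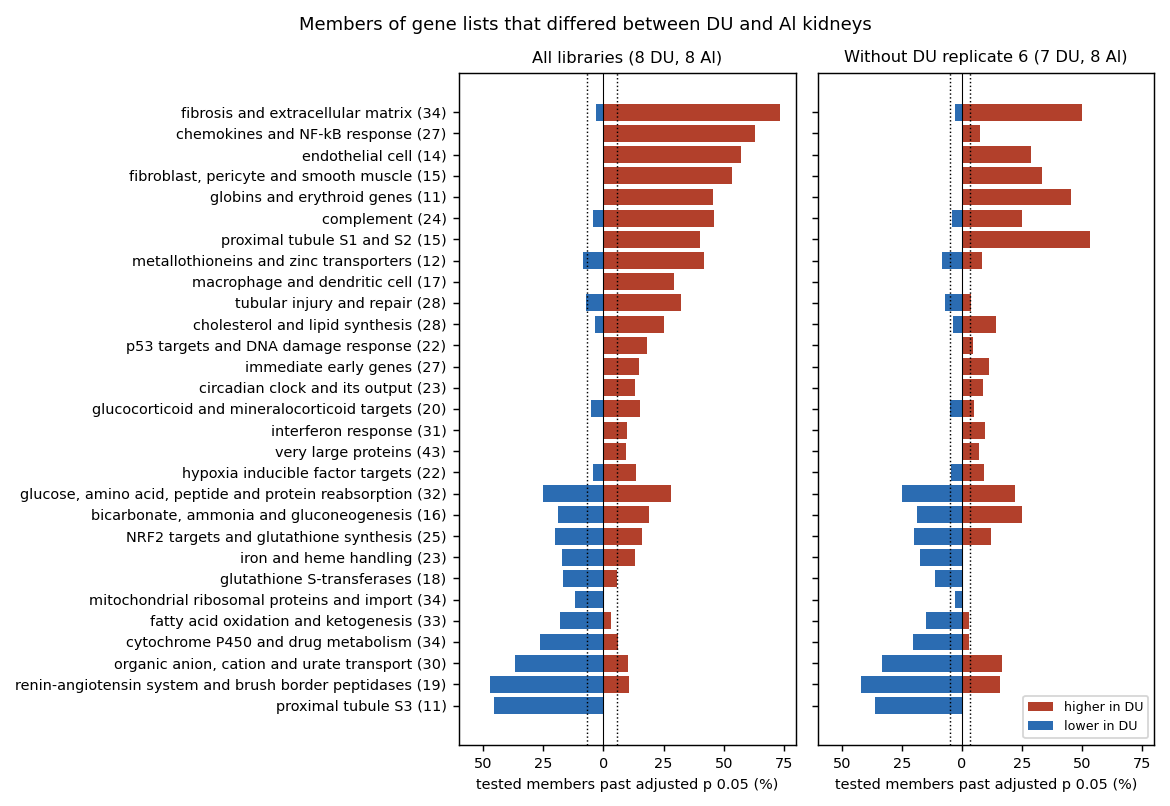
Share of tested members of each gene list (number in brackets) past an adjusted p of 0.05, higher in DU to the right and lower to the left, in percent, with all libraries (left) and without DU replicate 6 (right); lists with at least 10 tested members and at least 3 calls are shown. Dotted lines are the shares over all genes, 5.67% and 6.995% on the left and 3.39% and 5.02% on the right; the chemokine list goes from 63.0% higher to 2 of 27 genes.

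Matrix genes had the greatest share of higher members: 25 of 34 were higher and 1 lower (73.5% higher, background 5.67%; median 1.32), and 17 and 1 without DU replicate 6 (background 3.39%; median 1.03). Col1a2, a chain of type I collagen, was 42.6 to 301 CPM in DU (median 116.1) and 17.4 to 57.8 CPM in Al (median 34.7). There were 7 DU libraries above all Al libraries, and Ta kidneys held 75.2 ± 47.3 CPM. The log2 difference was 1.80 ± 0.40 (adjusted p = 0.00379), and 1.52 without DU replicate 6 (adjusted p = 0.0145). Thbs1, thrombospondin, differed by 1.35 ± 0.27 (adjusted p = 0.00191) and Col5a2, a type V collagen chain, by 1.30 ± 0.29 (adjusted p = 0.00377). The Thbs1 median was 84.8 CPM in both DU and Ta and 46.8 CPM in Al, with 6 Al libraries below every Ta library.

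Endothelial and stromal markers were higher too, though the stromal list shares Col1a2 with the matrix list. Of 14 endothelial markers 8 were higher and none lower (57.1%, background 5.67%, median 0.97). Of 15 markers of fibroblasts, pericytes and smooth muscle 8 were higher and none lower (53.3%, background 5.67%, median 1.03). Without DU replicate 6 the numbers higher were 4 and 5 (background 3.39%). Pecam1, an adhesion molecule of endothelial cells, was 42.9 to 129.4 CPM in DU (median 54.4) and 10.4 to 45.6 CPM in Al (median 16.3). The Al libraries fell into separate levels: replicates 1, 3 and 4 held 43.5, 45.6 and 44.7 CPM, near the lower DU libraries and the Ta level of 51.6 ± 7.49 CPM, and replicates 2, 5, 6, 7 and 8 held 10.4 to 17.7 CPM. The log2 difference was 1.34 ± 0.35 (adjusted p = 0.0116).

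Flt1, a receptor of vascular endothelial growth factor (1.00 ± 0.23, adjusted p = 0.00440), and Cdh5, the endothelial cadherin (1.18 ± 0.33, adjusted p = 0.0164), had 6 of 8 DU libraries above all Al ones. Among stromal genes, Pdgfra, a fibroblast receptor (1.18 ± 0.28, adjusted p = 0.00552), Tagln (1.28 ± 0.29, adjusted p = 0.00463) and Acta2 (1.03 ± 0.26, adjusted p = 0.00973), both smooth muscle proteins, were higher in 8 of 8 DU libraries than the Al median. Above all Al libraries lay 7 DU libraries for Pdgfra, 6 for Tagln and 4 for Acta2. Acta2 was 68 ± 18 CPM in DU and 71.3 ± 8.75 CPM in Ta (SD), with 7 Al libraries below every Ta library.

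The same 5 Al libraries were low over the whole endothelial list. Its mean log2 CPM was 4.97 to 5.73 in DU, 5.06 to 5.42 in Ta, 5.10 to 5.14 in Al replicates 1, 3 and 4, and 3.37 to 4.20 in Al replicates 2, 5, 6, 7 and 8, below every Ta library. For the stromal list, DU spanned 4.06 to 5.10, Al 2.95 to 4.58 and Ta 4.15 to 5.36, with 6 Al libraries below every Ta library. Podocyte markers, of which edgeR called 0 of 13 (6 had an unadjusted p below 0.05, DESeq2 called 2 and limma voom 8), spanned 2.38 to 4.38 in Al, 3.15 to 4.64 in DU and 4.12 to 4.90 in Ta. The part of these list levels in the gene differences was not tested, nor was a difference in the piece of kidney sampled. With the endothelial mean added to the model as a covariate, 11 genes passed the threshold, and 1571 had an unadjusted p below 0.05. With the S1 and S2, endothelial and principal cell means together, 4 passed and 1401 had an unadjusted p below 0.05. Because the endothelial mean (median 5.39 in DU, 4.16 in Al) and the S1 and S2 mean (8.73 and 7.42) differed between the groups, such a fit takes up part of any effect of the metal with them. The principal cell mean had closer medians, 5.52 in DU and 5.57 in Al.

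All 11 and all 4 were also called without the covariates. Thada (-0.80, adjusted p = 0.00708) and Eps8l3 (-2.15, adjusted p = 0.0469) passed with the endothelial covariate, and again with the 3 covariates, at -0.77 (adjusted p = 0.0104) and -2.19 (adjusted p = 0.0422). Cyp2c11 (-3.43), Frmd1 (-2.63), Sema6a (-1.04), Misp (-0.82), Eef2kmt (-0.68), Fgb (6.27) and Fga (4.16) passed with the endothelial covariate alone, at adjusted p-values of 0.0475 to 0.0494, and so did Hpse2 and Tex33. Without covariates, Fgb and Fga were not called by edgeR once DU replicate 6 was left out (adjusted p = 0.201 and 0.791). Cpox (-0.63) and Cldn3 (-0.61), each at an adjusted p of 0.0422, passed with the 3 covariates.

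**Figure D4:**
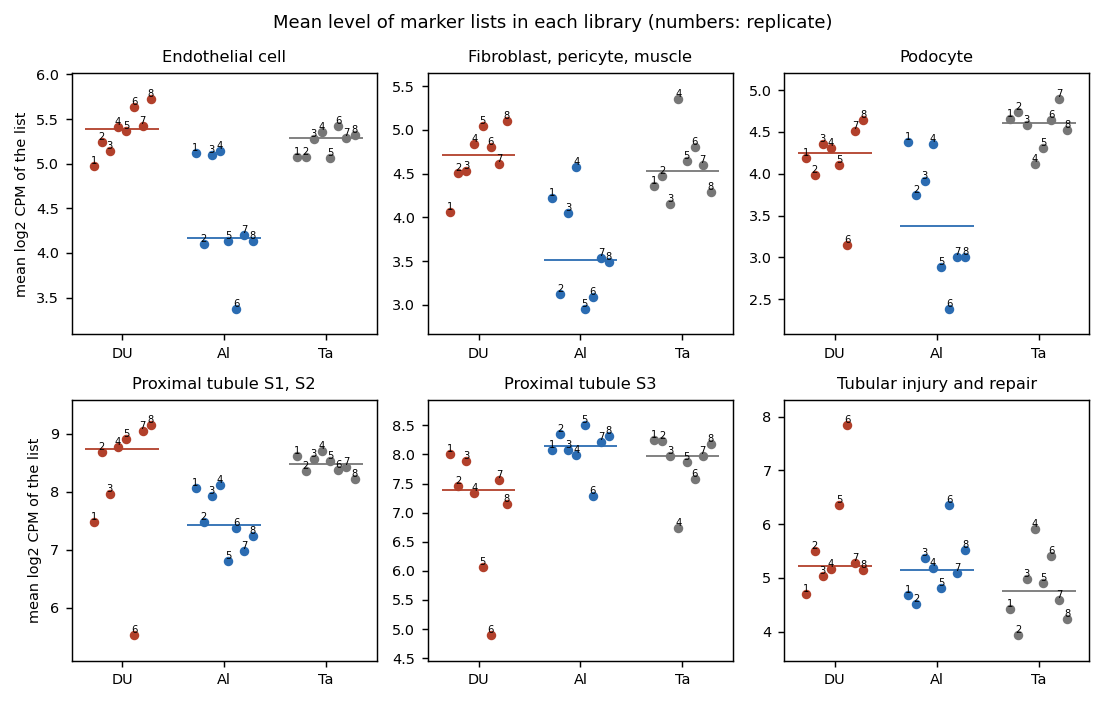
Mean log2 CPM of 6 gene lists (vertical axes, each with its own range) in every DU, Al and Ta library, numbered by replicate, with a line at the group median. Al replicates 2, 5, 6, 7 and 8 lie at 3.37 to 4.20 in the endothelial panel, below all other libraries, and DU replicate 6 lies at 7.85 in the injury panel, above all others.

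Complement genes were higher in 11 of 24 cases and lower in 1 (45.8% higher, background 5.67%, median 0.99). Without DU replicate 6 they were higher in 6 cases (background 3.39%) and lower in 1. C7, which joins the membrane attack complex, was 43.1 to 549 CPM in DU (median 201) and 7.76 to 88.2 CPM in Al (median 25.9). DU replicate 5 held the 549 CPM, 7 DU libraries lay above all Al libraries, and the difference was 2.40 ± 0.64 (adjusted p = 0.0130). Cfb, factor B of the alternative pathway (1.34 ± 0.33, adjusted p = 0.00756), was higher with and without DU replicate 6. In contrast C3, the central component, was 8636 CPM in DU replicate 6, 17.7 to 217 CPM in the other DU libraries and 16.3 to 158 CPM in Al. Its log2 difference fell from 4.38 (adjusted p = 0.00271) to 0.53 (adjusted p = 0.580) when that library was left out.

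Several higher genes outside the matrix held with every library left out in turn. Aldh1a3, which makes retinoic acid, was 11.5 to 25.6 CPM in DU (median 16.1) and 1.77 to 9.07 CPM in Al (median 4.24), with no overlap, and 7.68 ± 5.31 CPM in Ta (1.82 ± 0.42, adjusted p = 0.00471). Lrp1, a large endocytic receptor, differed by 1.72 ± 0.38 (adjusted p = 0.00379). Nr4a1, an immediate early nuclear receptor, was 41.0 to 203 CPM in DU (median 67.3) and 21.4 to 45.4 CPM in Al (median 30.2). It was higher by 1.37 ± 0.27 (adjusted p = 0.00153). Of 27 immediate early genes 4 were higher (14.8%, background 5.67%), and 3 without DU replicate 6 (background 3.39%). Klf2, a flow-responsive endothelial factor (0.84 ± 0.20), Plk3, a stress kinase (1.14 ± 0.27), and Pfkfb3, a driver of glycolysis (1.11 ± 0.25), had adjusted p-values of 0.00371 to 0.00621.

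Sterol and lipid synthesis genes were 7 higher and 1 lower of 28 (25% higher, background 5.67%), and 4 and 1 without DU replicate 6 (background 3.39%). The mean log2 CPM of the list was 4.21 to 4.47 in DU, 3.85 to 4.20 in Al and 4.16 to 4.42 in Ta. Here 7 Al libraries lay below every Ta library. Srebf2, the transcription factor of sterol synthesis, was 62.0 to 77.2 CPM in DU (median 68.1) and 37.6 to 66.8 CPM in Al (median 54.9), a small difference of 0.39 ± 0.10 (adjusted p = 0.00914). Insig1, which holds that factor back, was higher by 0.70 ± 0.17 (adjusted p = 0.00654). Lpl, lipoprotein lipase, was higher by 1.51 ± 0.31 (adjusted p = 0.00240), and by 0.68 without DU replicate 6, which held 236 CPM against at most 46.0 CPM in the other DU libraries. Its median was 33.9 CPM in DU, 21.4 CPM in Al and 32.1 CPM in Ta, and all 8 Al libraries lay below every Ta library.

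Globin and erythroid genes were 5 higher and 0 lower of 11, with and without DU replicate 6 (45.5%, backgrounds 5.67% and 3.39%). The median was 0.84 with all libraries. Hbb, beta globin, was 128.2 to 350 CPM in DU (median 177) and 47.1 to 198 CPM in Al (median 87), and 82.6 ± 15.6 CPM in Ta. Its difference was 1.04 ± 0.29 (adjusted p = 0.0173), and 2 of 8 DU libraries lay above all Al libraries. Hba-a1, alpha globin, was higher by 0.84 ± 0.24 (adjusted p = 0.0187). The globin genes have near-identical copies, and how their shared reads were counted is not given. The part of blood left in the tissue was not tested.

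Most edgeR calls among acute phase, chemokine and tubular injury genes rested on 1 animal. Of 27 chemokine and NF-kB response genes 17 were higher and none lower (63.0%, background 5.67%, median 1.31). But without DU replicate 6 only Vcam1 and Csf1 passed (2 of 27, background 3.39%, median 0.51). These 2 are named after their values were seen. Other tools lost fewer: DESeq2 called 12 with all libraries and 4 without DU replicate 6, limma voom 12 and 11, and 10 kept an unadjusted p below 0.05. Of 28 tubular injury and repair genes edgeR called 9 higher (32.1%, background 5.67%) and 2 lower (7.14%, background 6.995%). Without DU replicate 6 it called 1 and 2 (backgrounds 3.39% and 5.02%), while limma voom called 7 both times. Cxcl1, a neutrophil attractant, was 247 CPM in DU replicate 6, 0.237 to 5.74 CPM in the other DU libraries and 0.135 to 2.09 CPM in Al. Its difference of 5.64 ± 1.12 (adjusted p = 0.00162) became 1.58 ± 0.88 (adjusted p = 0.255). For the related Cxcl2, at 53.3 CPM in DU replicate 6 and at most 1.07 CPM elsewhere in DU, it went from 6.01 (adjusted p = 0.00316) to 1.68 (adjusted p = 0.321).

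Fibrinogen followed. Fgb, its beta chain, was 3888 CPM in DU replicate 6, 3.08 to 57.6 CPM in the other DU libraries and 2.88 to 26.2 CPM in Al (5.72, adjusted p = 0.00121, against 1.22, adjusted p = 0.201). Fga reached 4331 CPM in that library and Fgg 549 CPM, and neither passed without it, at adjusted p-values of 0.791 and 0.260. The Fga median was 37 CPM in DU and 40.5 CPM in Al. C4bpa, S100a8, S100a9, Selp, Tfpi2, Ptx3, Cd163, Mrc1, Tnfaip3 and Angptl4 also lost their calls without it, with adjusted p-values of 0.0691 to 0.606. Some of them kept a difference of more than 1 on the log2 scale: Cd163, a macrophage scavenger receptor, went from 3.37 to 2.20, Tfpi2 from 4.46 to 2.29, Selp from 4.89 to 2.03 and Mrc1, the mannose receptor, from 2.39 to 1.33. For Mrc1 7 of 8 and for Cd163 6 of 8 DU libraries lay above all Al libraries. Saal1 kept its call. It was 337 CPM in DU replicate 6, 6.28 to 38.1 CPM in the other DU libraries and 0.886 to 11.7 CPM in Al. The difference was 3.51 ± 0.63 with all libraries and 1.72 ± 0.45 without that library (adjusted p = 0.0164).

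A panel of 12 kidney injury and metal response genes gave 5 higher (41.7%, background 5.67%) and 1 lower (8.33%, background 6.995%) with all libraries. Without DU replicate 6 edgeR called 0 of 12, 4 had an unadjusted p below 0.05, DESeq2 called 2 and limma voom 3. Lcn2, the injury marker NGAL, was 8234 CPM in DU replicate 6 and 10.9 to 155 CPM in the other DU libraries, against 13.2 to 250 CPM in Al, where replicate 6 was highest. Its difference went from 4.29 (adjusted p = 0.00750) to 0.10 (adjusted p = 0.951). Havcr1, the injury marker KIM-1, was 1179 CPM in DU replicate 6, 12.0 to 193 CPM in the other DU libraries and 14.4 to 165 CPM in Al. It did not pass in either fit (1.98, adjusted p = 0.0699; 0.08 without, adjusted p = 0.953). Timp1, an inhibitor of matrix proteases, went from 1.91 (adjusted p = 0.0218) to 0.42 (adjusted p = 0.577), and Hmox1, haem oxygenase, from 1.93 (adjusted p = 0.0127) to 0.76 (adjusted p = 0.242).

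Other panel genes overlapped widely. Spp1, osteopontin, was 746 to 13296 CPM in DU and 951 to 9548 CPM in Al (0.44 ± 0.59). Clu, clusterin, differed by 0.76 ± 0.49, and both had a negative difference without DU replicate 6, -0.16 for Spp1 and -0.14 for Clu. Cdkn1a, the cell cycle inhibitor p21 (0.52 ± 0.24), and Cyp24a1, the vitamin D hydroxylase (0.59 ± 0.27), had adjusted p-values of 0.142 and 0.144. Umod, uromodulin of the thick ascending limb, had medians of 2580 CPM in DU and 4577 CPM in Al (-0.80 ± 0.27, adjusted p = 0.0438), and lost its call in 12 of 16 leave-one-out fits.

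Macrophage and neutrophil markers were highest in DU replicate 6 as well. Over 17 macrophage markers the mean log2 CPM reached 5.52 there, 2.79 to 4.85 in the other DU libraries and 1.83 to 3.94 in Al, and that of 8 tested neutrophil and mast cell markers 2.39, -1.10 to 1.11 and -1.58 to 0.13. Of the macrophage markers 5 were higher (29.4%, background 5.67%). Without that library edgeR called 0, 5 had an unadjusted p below 0.05, DESeq2 called 1 and limma voom 8. Among neutrophil markers Mmp8 had a median of 0 CPM in both groups, while Mpo had medians of 1.24 CPM in DU and 0.609 CPM in Al and Csf3r 2.06 and 1.61 CPM. DU replicate 6 itself held 142.5 CPM of S100a8 and 151 CPM of S100a9. That library was the lowest in DU for B and plasma cell markers (-0.92) and for several kidney cell types. These were the thick ascending limb (5.83), distal convoluted and connecting tubule (4.28), principal cell (3.39), intercalated cell (4.22) and podocyte (3.15). The part of these cell types in the chemokine and injury result was not tested.

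Mt1 and Mt2A, the metallothioneins of most tissues, were higher with all libraries, while Mt3, near 1 CPM, did not pass (0.24, adjusted p = 0.861). The promoters of the first 2 are shown because the genes moved together and the letters of metal response elements occur in both. The windows are the 250 bases before the annotated start, from RefSeq on build GRCr8, which is not the build of the counts: chr19:10832976-10833225 for Mt1 and chr19:10838709-10838958 for Mt2A, both on the minus strand. Capitals mark every match, on either strand, to the metal response element letters TGCACNC or TGCGCNC.
Mt1: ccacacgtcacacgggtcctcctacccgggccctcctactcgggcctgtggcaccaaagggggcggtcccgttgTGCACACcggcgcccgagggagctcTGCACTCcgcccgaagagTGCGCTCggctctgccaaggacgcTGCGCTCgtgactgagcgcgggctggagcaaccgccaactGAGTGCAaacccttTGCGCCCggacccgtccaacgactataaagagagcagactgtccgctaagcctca
Mt2A: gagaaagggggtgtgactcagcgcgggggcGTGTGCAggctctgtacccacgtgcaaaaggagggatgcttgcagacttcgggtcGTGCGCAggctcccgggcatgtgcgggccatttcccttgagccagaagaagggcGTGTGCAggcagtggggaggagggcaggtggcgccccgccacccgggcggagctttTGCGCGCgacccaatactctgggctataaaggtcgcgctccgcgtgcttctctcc
Mt1 holds 3 matches to TGCACNC and 3 to TGCGCNC, and Mt2A 2 and 2, with no overlaps. Over 33469 RefSeq promoters cut to the same length, 10.3% hold the first and 11.8% the second. Of 9 tested genes of the metallothionein and zinc transporter list matched to a promoter, 6 hold each motif, 2 of them among the 3 that were higher. A match describes the letters only.

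Mt1 was 235 to 1971 CPM in DU (median 441) and 119.4 to 531 CPM in Al (median 314), against 385 ± 67.6 CPM in Ta. DU replicates 5, 6 and 8, at 951, 1971 and 986 CPM, lay above all Al libraries, and the other 5 lay within their range. The difference was 1.24 ± 0.33 (adjusted p = 0.0121), and 0.83 ± 0.30 without DU replicate 6 (adjusted p = 0.0697). Mt2A showed the same 3 libraries highest, at 1383, 5960 and 1210 CPM, against 388 to 866 CPM in Al (1.34 ± 0.34, adjusted p = 0.00802; 0.48 ± 0.22 without, adjusted p = 0.162). The zinc and iron importer Slc39a14 was 66.8 CPM in DU replicate 6 and 4.01 to 9.68 CPM in the other DU libraries. It was 1.96 to 4.87 CPM in Al, and 5 of 8 DU libraries lay above all Al libraries. The difference was 1.94 ± 0.44 (adjusted p = 0.00432), and 0.74 without DU replicate 6 (adjusted p = 0.113). Slc39a8, another importer of zinc, manganese and cadmium, was lower (-0.69 ± 0.22, adjusted p = 0.0301), with 6 of 16 leave-one-out fits losing the call. Of the 12 metallothionein and zinc transporter genes tested, 5 were higher (41.7%, background 5.67%) and 1 lower (8.33%, background 6.995%) with all libraries. Without DU replicate 6 they were 1 and 1 (backgrounds 3.39% and 5.02%).

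**Figure D5:**
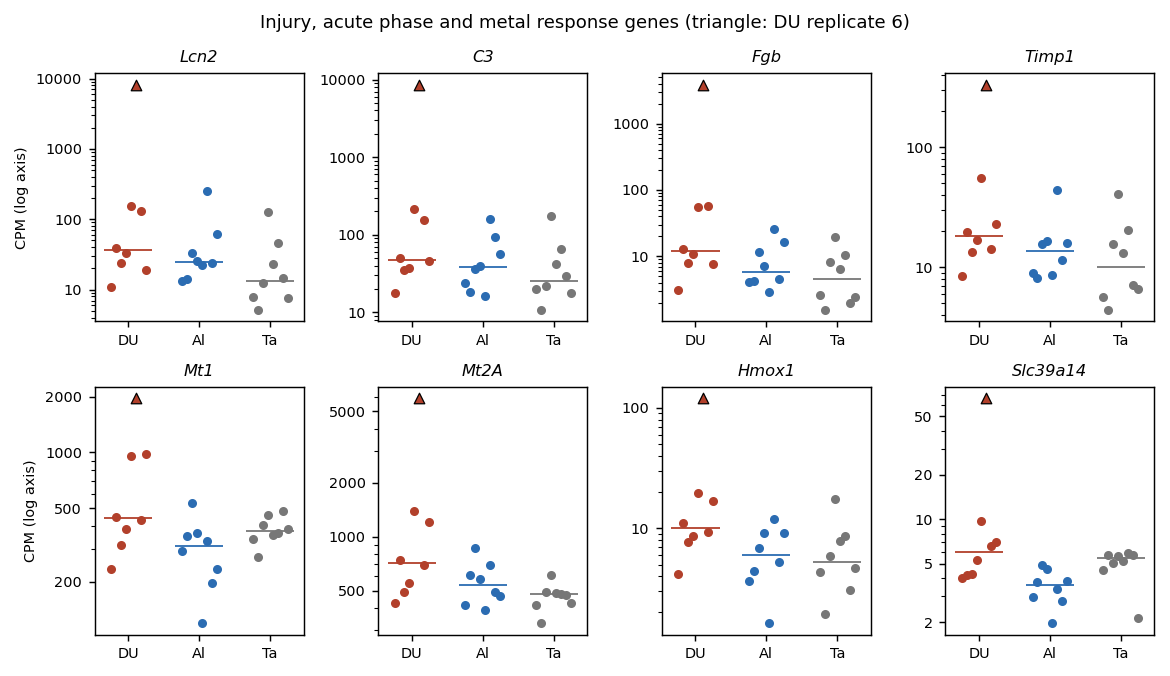
CPM on a log axis of 8 injury, acute phase and metal response genes, 1 point per library and a line at the group median, for DU, Al and Ta (n = 8 each); the triangle is DU replicate 6. In each panel the triangle is the highest point, at 8234 CPM for Lcn2 and 5960 CPM for Mt2A. The range of the other DU libraries overlaps that of Al. With the triangle counted, 5 DU libraries lie above all Al libraries for Slc39a14 and 3 for Fgb, Hmox1, Mt1 and Mt2A. There are 2 for C3 and Timp1 and 1 for Lcn2.

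The promoters of Cxcl1 (chr14:17479322-17479571) and Cxcl2 (chr14:17467256-17467505), both on the minus strand of GRCr8, are shown because both genes were far higher in DU replicate 6 than in every other DU library. Capitals mark matches on either strand to the letters GGGNNTTTC, letters that many NF-kB sites carry.
Cxcl1: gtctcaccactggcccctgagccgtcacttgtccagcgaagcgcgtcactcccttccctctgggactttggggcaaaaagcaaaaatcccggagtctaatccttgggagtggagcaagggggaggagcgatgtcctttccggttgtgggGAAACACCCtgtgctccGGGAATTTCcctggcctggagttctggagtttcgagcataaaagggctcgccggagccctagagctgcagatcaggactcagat
Cxcl2: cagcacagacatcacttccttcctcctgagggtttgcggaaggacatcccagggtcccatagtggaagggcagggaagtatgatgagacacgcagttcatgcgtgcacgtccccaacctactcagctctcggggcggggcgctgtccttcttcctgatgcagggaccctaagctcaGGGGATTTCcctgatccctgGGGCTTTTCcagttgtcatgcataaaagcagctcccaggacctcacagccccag
Each holds 2 matches. Over all 33469 promoters 3.7% hold at least 1. Of the 19 chemokine and NF-kB response genes matched to a promoter, 9 hold it, 7 of them among the 12 that were higher.

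In other lists few genes passed. Of 43 genes of oxidative phosphorylation, 1 was lower (2.33%, background 6.995%) and 0 higher. It was Ndufa10 of complex I (-0.38 ± 0.10, adjusted p = 0.00973). Of 67 ribosomal protein genes edgeR called 0, and 0 had an unadjusted p below 0.05 or were called by DESeq2 or limma voom (median -0.01). Of 13 mitochondrially encoded genes 0 were called by any of the 3 tools and 1 had an unadjusted p below 0.05 (median -0.12). For 31 proteasome genes edgeR and DESeq2 called 0, limma voom 7, and 1 had an unadjusted p below 0.05 (median -0.04). For the following lists the number of genes called by edgeR, DESeq2 and limma voom, and then the number at an unadjusted p below 0.05, is given. These were 0, 0, 2 and 1 for 28 cell cycle genes (median 0.08) and 0, 1, 2 and 5 for 19 antigen presentation genes (median 0.45). For 12 principal cell markers they were 0, 0, 1 and 1, and for 11 markers of the distal convoluted and connecting tubule 0, 0, 4 and 2. Of 22 p53 targets 4 were higher (18.2%, background 5.67%), and 1 without DU replicate 6 (background 3.39%). Interferon response genes were 3 higher of 31 (9.68%, near the background of 5.67%), with a median of 0.41.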

How the data were processed

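Kidney RNA of 47 rats was sequenced, and the 16 DU and Al libraries are described here. The authors deposited a table of raw read counts by gene. STAR 2.7.2a, featureCounts (Subread 1.6.4) and the build mRatBN7.2 are named in the submitters' processing notes. The annotation, the strand setting and the handling of multi-mapping reads are not given in the sources used here. Of 22554 lines, 29 were left out, since they belong to 5 very long genes whose coordinates run over line ends, and 22525 genes remained. RefSeq (build GRCr8) holds 18641 of the symbols (82.8%).

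The DU minus Al difference comes from a joint model of the 47 libraries, fitted by edgeR 4.0.16 (R 4.3.3) (legacy quasi-likelihood option): filterByExpr by group, TMM scaling, two-sided F test, Benjamini-Hochberg adjustment over all 15868 genes, threshold 0.05. Common dispersion was 0.124 and prior degrees of freedom 4.84. The standard error is the log2 difference divided by the root of F, an approximation. CPM are counts divided by TMM-scaled library totals, and list levels are means of log2 CPM with a prior count of 2. For 8 libraries the lowest, median and highest value are given.

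The members, gene lists and rules were chosen with earlier results of these data known, so list counts are a description. Some genes are in more than 1 list, such as Slc5a10 (S3 and reabsorption) and Me1 (NRF2 and lipid synthesis). List counts are therefore not independent of each other. Genes with non-provisional symbols were named by this rule: up to 10 higher and 10 lower by size with at least 1 CPM and 7 of 8 DU libraries on the same side of the Al median, the 10 smallest p-values, up to 4 members with the smallest p in each list, and a panel of 12. Vcam1, Csf1, Hpse2 and Tex33, and lists of called members, were named after their values were seen. Some genes that the rule names are not reported here.

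On simulated counts with 200 changed genes the fit recovered 59.3% of genes changed 1.5-fold, 70.9% changed 2-fold and 100% changed 4-fold. There were 4 false calls among 15670 genes. The simulation drew the counts of each gene independently and changed only genes above 1 CPM. No simulated library stood apart and no cell type share varied, so the false calls are not the error rate of the real comparison. No library was a copy of another: over 56 pairs within the groups, chi-square divided by its degrees of freedom was at least 16.1. Replicate numbers do not pair libraries by the labels, and depth covers counting error only. Alternatives were DESeq2 1.42.0, limma 3.58.1 voom with quality weights, other scalings and filters, only the 16 libraries, covariates, a replicate block, a fold of 1.5, a threshold of 0.1 and each library left out; single cell type covariates, edgeR's newer option and repeats without DU replicate 6 were added after seeing the data.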

Additional observations from a re-analysis of the deposited data

Results flagged for a closer look

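Dixon's test for 1 value far from the rest of its group, with the critical value 0.526 for 8 libraries, was run on the CPM of the named genes in both groups. It marked 51 of 200 groups. The nominal rate of about 5% holds for normal values and for genes not chosen from the same data. Here CPM were used and genes were named partly by their DU minus Al difference, so it is not the chance rate. Genes that move together are also not independent, so their number says little. DU replicate 6 was the library marked in 35 and Al replicate 6 in 10.

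DU replicate 6 was marked high for the injury and acute phase genes Lcn2 (8234 CPM), C3 (8636), Fga (4331), Fgb (3888), Fgg (549), Clu (5083), Havcr1 (1179), Timp1 (336), Saal1 (337), Ptx3 (63.8), C4bpa (76.7), S100a8 (142.5) and S100a9 (151). It was marked high for the metal and oxidative stress genes Mt2A (5960 CPM), Mt1 (1971), Hmox1 (121.2), Nqo1 (25.7) and Slc39a14 (66.8). Chemokine, vascular and macrophage genes marked high there were Cxcl1 (247 CPM), Cxcl2 (53.3), Selp (87.9), Tnfaip3 (99.3), Tfpi2 (11.4), Mrc1 (87.8), Cd163 (19.6), Pecam1 (129.4), Cdh5 (29.6), Thbs1 (348) and Cfb (50.8). Metabolic genes marked high there were Angptl4 (258 CPM), Lpl (236), Slc16a1 (121.9), Pfkfb3 (34.8) and Insig1 (30.2). Saal1 (337 CPM) was also marked high there, and Car2 was marked low, at 146.4 CPM.

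In Al, replicate 6 was marked high for Lcn2 (250 CPM), Havcr1 (165), Clu (2349), Spp1 (9548), Timp1 (44.4), Cxcl1 (2.09), S100a8 (1.52), S100a9 (3.46) and Cldn3 (81.5), and low for Mme (114.7). Anxa13 was high in Al replicate 5 (42.2 CPM) and Selp in Al replicate 4 (1.24). In DU, C7 was high in replicate 5 (549 CPM), Nr4a1 in replicate 8 (203), Slc22a7 in replicate 1 (37.1) and Slitrk1 in replicate 3 (1.58).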

How the results depend on the processing

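Cell type markers, single libraries, the size and adjusted p thresholds and the choice of limma voom moved the count of 2010 genes by more than 1.5 times. Leave-one-out counts were 927 to 2509 (445 to 1872 once DU replicate 6 was already out), and the count fell by more than 1.5 times without DU replicate 5 (1098), DU replicate 6 (1332), or Al replicate 2 (1268), 5 (927) or 7 (1211). It was 1179 with S1 and S2 markers as a covariate, 1243 with principal cell markers, 11 with endothelial markers, 4 with the 3 lists together, 27 against a fold of 1.5, 3232 at a threshold of 0.1 and 4200 with limma voom.

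Without DU replicate 6 (1332 genes), the same settings gave 1, 0, 4, 2412 and 4075 for S1 and S2 markers, the 3 lists, endothelial markers, a threshold of 0.1 and limma voom, with 2251 from only the DU and Al libraries and 2011 with edgeR's newer option. Against a fold of 1.5 edgeR called 0, and 772 genes had an unadjusted p below 0.05; with the 3 lists 955 did. Leaving out a further library lowered it by more than 1.5 times for DU replicates 4 (730), 5 (445), 7 (855) and 8 (624) and Al replicates 2 (771), 5 (450), 7 (665) and 8 (808). RLE and upper quartile scaling, no filter, a strict filter, the small-protein balance, edgeR's newer option with all libraries and DESeq2 (2492 with all libraries) kept each total within 1.5 times. The number higher moved further, from 900 to 1373 with the newer option and 1360 with DESeq2, and from 537 to 922 with DESeq2 without DU replicate 6. Only the DU and Al libraries gave 1880, 1137 higher and 743 lower. RLE moved the median log2 difference of all genes from 0.02 to 0.04, and the split to 1035 higher and 937 lower.

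Among named genes, reversals occurred only in uncalled values and in Lcn2. With principal cell markers as a covariate Havcr1 was -0.34, Lcn2 -0.17, Spp1 -0.50, Clu -0.38 and Nqo1 -0.06. With limma voom Spp1 was -0.13, Clu -0.00 and Nqo1 -0.17; leave-one-out values were -0.16 to 1.03 for Spp1, -0.14 to 1.35 for Clu and -0.21 to 0.30 for Nqo1, each lowest without DU replicate 6; with the 3 lists Nqo1 was -0.14. The cause was not tested.

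Taking replicate numbers as a block gave 2104 genes (1387 without DU replicate 6) and moved no count by over 1.5 times. The numbers do not pair libraries: residuals of 8 same-number pairs had a median correlation of -0.037 (-0.353 to 0.328), and 1 DU library correlated best with its own number.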
